A study of Mus musculus with 4 samples.

Results

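The genes described here are 10 neuropeptide precursor genes, *Sst*, *Npy*, *Vip*, *Cck*, *Penk*, *Pdyn*, *Tac1*, *Cartpt*, *Crh* and *Adcyap1*, chosen by symbol from the 32285 genes of the count files. All 10 were present and all 10 passed the filter on low counts. They were measured in 4 sections, 10 µm thick, of fresh frozen brain from *Nf1+/-* mice, which carry 1 inactive copy of *Nf1*, the gene mutated in neurofibromatosis type 1. Each section was profiled on a Visium slide, on which barcoded spots capture the polyadenylated RNA of the tissue above them and each captured molecule is counted once by its unique molecular identifier (UMI). All sections carried this genotype and there was no control genotype, so nothing below compares genotypes. The labels give neither age nor brain level, and they do not say that each section is a separate mouse, so n is a number of sections. The p-values measure only how differences between groups of spots varied from section to section. The labels name no regions, so each section's own spots were grouped by the counts of 3 regional marker genes.

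Neuropeptides are made as long precursors that are cut by proteases in secretory vesicles and released mostly on sustained firing, and they act on G protein-coupled receptors over longer distances and times than fast transmitters. In the forebrain most precursors belong to particular neuron types, which makes them widely used markers. Projection neurons of the striatum make enkephalin (*Penk*), or substance P (*Tac1*) with dynorphin (*Pdyn*), whereas cortical interneurons make somatostatin (*Sst*), neuropeptide Y (*Npy*), vasoactive intestinal peptide (*Vip*) and cholecystokinin (*Cck*), which excitatory cortical neurons also express. *Cartpt* encodes the CART peptides, *Crh* encodes corticotropin-releasing hormone and *Adcyap1* encodes the pituitary adenylate cyclase-activating peptide PACAP. In GRCm38.p6, the patched form of the mm10 build named in the submitters' notes, the genes lie on 9 chromosomes, with *Npy* at chr6:49822710-49829507 and *Tac1* at chr6:7555061-7562978. *Sst* is at chr16:23889573-23891342, *Vip* at chr10:5639193-5647617, *Cck* at chr9:121489824-121495694 and *Penk* at chr4:4133536-4138815. *Pdyn* is at chr2:129686549-129699938, *Cartpt* at chr13:99898483-99910179, *Crh* at chr3:19693401-19695396 and *Adcyap1* at chr17:93198245-93206541.

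*Sst* and *Vip* are classical targets of cyclic AMP signalling, so the RefSeq promoters (250 bases before to 50 after the start, GRCm38.p6) were searched on both strands for the cyclic AMP response element TGACGTCA and for its first 7 bases, TGACGTC, which every full element also holds. Of the 8 members with a listed promoter, 2 (*Sst* and *Cartpt*) held TGACGTCA, as did 2.03% of all 27025 genes with a listed promoter, and 4 held TGACGTC (3.60% of all genes). A match is a description of the letters and not evidence of a working site. The 4 windows are shown because they hold a match, with the match in capitals, 5′ to 3′ on the strand of the gene.
Sst (chr16:23890874-23890903, minus strand): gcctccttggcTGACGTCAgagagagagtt
Cartpt (chr13:99900777-99900806, minus strand): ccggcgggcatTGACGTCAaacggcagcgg
Vip (chr10:5639128-5639156, plus strand): gatcactactgTGACGTCtttcggggagc
Adcyap1 (chr17:93198915-93198943, plus strand): gactaggatgcTGACGTCttttactgata
The *Npy*, *Cck*, *Pdyn* and *Tac1* promoters held neither string. The promoters start from single RefSeq transcripts, whereas the locations above span all transcripts of a gene, so the *Sst*, *Cartpt* and *Adcyap1* windows lie inside those spans.

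Sections 1 to 4 had 1537, 2358, 2294 and 1431 spots with 500 UMIs or more, with a median of 14922, 15296.5, 8862.5 and 12232 UMIs per spot. Every pair of sections differed by far more than counting noise (chi-square 14.5 to 55.4 per degree of freedom). Pairs had 427 to 1989 spot barcodes in common, but a spot barcode marks a position on a slide and is no sign of shared tissue or counts. Spots were ranked within their section by how far *Slc17a7*, *Slc17a6* or *Ppp1r1b* UMIs exceeded the number predicted from the spot's total, and the top 10% formed that gene's class. Spots that fell in several classes were set aside, and all others are called the remaining spots. *Slc17a7* encodes the vesicular glutamate transporter of cortical and hippocampal neurons, *Slc17a6* that of thalamic, hypothalamic and brainstem neurons, and *Ppp1r1b* a dopamine-regulated phosphatase inhibitor of striatal projection neurons. The classes were checked against other markers. All 7 striatal markers were higher in the *Ppp1r1b*-high spots, where their summed level was 2839 to 3371 CPM (counts scaled to a total of 1000000 UMIs) against 545 to 1073 in the remaining spots, and all 6 markers of pallial excitatory neurons were higher in the *Slc17a7*-high spots (852 to 1042 against 278 to 632 CPM). Of 3 hippocampal markers edgeR called 0 higher and 1 lower in the *Slc17a7*-high spots, *Spink8* (log2 -0.93), with a median log2 of -0.70 over the 3. DESeq2 called 0 of them higher, and 0 were higher at an unadjusted p under 0.05. The *Slc17a6*-high spots did not carry the 7 subcortical markers at a higher level than the remaining spots (82.9 to 222 against 99.2 to 152 CPM, edgeR calls 0 higher and 1 lower), so the class is named only by its gene. At an unadjusted p under 0.05 in edgeR 2 of the 7 were higher and 1 lower. Against the *Slc17a7*-high spots edgeR called 4 of the 7 higher and 1 lower (median log2 1.08). Of the 6 markers of pallial excitatory neurons, edgeR called 2 higher in the *Slc17a6*-high than in the remaining spots (median log2 0.49) and DESeq2 called 0. At an unadjusted p under 0.05 in edgeR 5 were higher, and their summed level was 247 to 858 against 278 to 632 CPM. *Slc17a6* itself gave only 223 to 391 UMIs per section, the class spots had a median of 1 or 2 of them, and 36 of the 183 class spots in section 3 had none. All 5 oligodendrocyte markers were lower in each of the 3 classes than in the remaining spots (summed 2213 to 3196 CPM in *Ppp1r1b*-high, 1877 to 2510 in *Slc17a7*-high and 2454 to 4248 in remaining spots), although DESeq2 called only 3 of the 5 lower in the *Ppp1r1b*-high spots. All 4 choroid plexus markers tested were lower in each class as well (median log2 -2.01 in *Slc17a7*-high, -1.36 in *Slc17a6*-high and -1.90 in *Ppp1r1b*-high). Of these, DESeq2 called only 1 lower in the *Slc17a6*-high and 3 in the *Ppp1r1b*-high spots. Of the fibroblast markers 2 of 2 were lower in the *Slc17a7*-high and in the *Ppp1r1b*-high spots, of the astrocyte markers 3 and 4 of 5, and of the microglia markers 5 of 5 in the *Slc17a7*-high spots. The part of these cell types in the differences below was not tested. The 3 comparisons with the remaining spots share those spots, so they are not independent of each other.

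*Penk* gave the most UMIs of the 10 genes. It stood at 1102, 1155, 1198 and 826 CPM in sections 1 to 4, and *Cck* came next at 498, 850.2, 820.1 and 903 CPM. *Penk* was lowest in section 4 and *Cck* in section 1, and *Cck* exceeded *Penk* only in section 4. *Sst* held 456, 466, 472 and 432 CPM (456 ± 17.9, SD, n = 4) and varied least between sections. *Npy* held 291, 305, 422 and 504 CPM, below *Sst* in sections 1 to 3 and above it in section 4. *Tac1* held 377, 409.8, 429 and 225 CPM and, like *Penk*, was lowest in section 4.

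The other 5 genes were rarer in every section. *Pdyn* gave 72.0, 91.3, 72.0 and 42.5 CPM, *Cartpt* 56.5, 86.3, 81.5 and 49.0 CPM, and both were lowest in section 4. *Vip* gave 21.6, 42.9, 52.7 and 53.4 CPM, with section 1 at less than any other. *Crh* went the other way, with 22.1 CPM in section 1 and 5.97, 9.68 and 11.1 CPM in sections 2 to 4. *Adcyap1* was the rarest, at 4.09, 8.16, 7.81 and 6.54 CPM, from only 96 to 302 UMIs per section. Exact Poisson 95% intervals of *Crh* (20.2 to 24.1 CPM in section 1 and at most 12.6 in the others) cover counting error only. Because the labels do not give the brain level of a section, mouse, brain level and plane of cut cannot be told apart in such differences between sections.

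**Figure D1:**
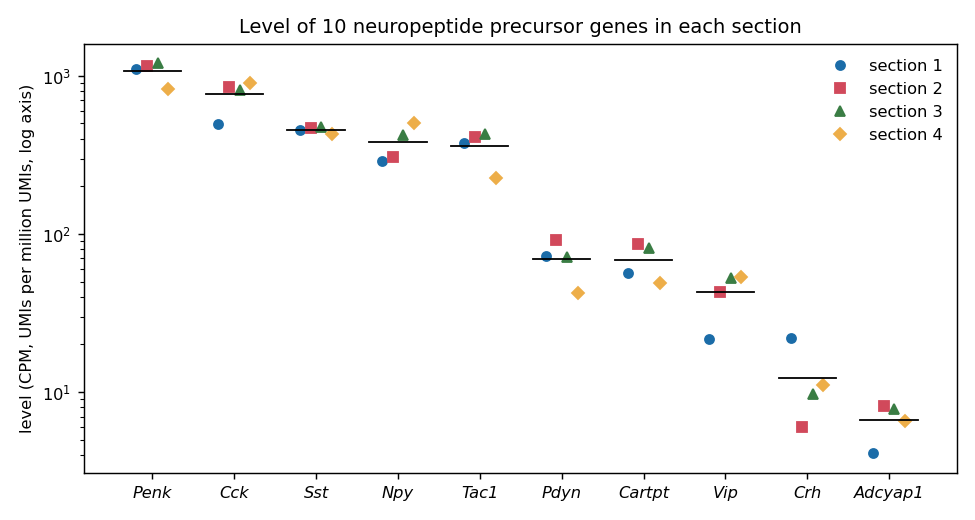
Level of each gene in each section, in CPM on a log axis, with genes ordered by their mean and a line at the mean of the 4 sections. *Penk* and *Cck* lie highest, and *Crh* in section 1 (22.1 CPM) stands above the other sections (5.97 to 11.1 CPM).

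Ordered by the mean of the 4 sections the levels ran *Penk*, *Cck*, *Sst*, *Npy*, *Tac1*, *Pdyn*, *Cartpt*, *Vip*, *Crh* and *Adcyap1*. These are UMIs of captured RNA ends, which are not divided by gene length. Between neighbours in that order, the ranges of mean ± SD were apart only for *Cck* over *Sst* (higher in 4 of 4 sections), *Tac1* over *Pdyn* (4 of 4) and *Vip* over *Crh* (3 of 4). *Penk* and *Cck*, *Sst* and *Npy*, *Npy* and *Tac1*, *Pdyn* and *Cartpt*, *Cartpt* and *Vip*, and *Crh* and *Adcyap1* had overlapping ranges. A spot is a small piece of tissue, so fewer cells of a type and less RNA per cell cannot be told apart in any level given here.

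The genes differed in how much of the tissue held a UMI. *Penk* was found in 79.5 to 96.2% of spots, *Cck* in 87.8 ± 5.59% (SD, n = 4) and *Sst* in 75.4 to 90.0%. By contrast, *Vip* was found in 12.8, 26.2, 14.3 and 24.8% of spots, *Crh* in 10.7 ± 6.39% (SD, n = 4) and *Adcyap1* in 5.40 to 10.5%. After spots with at least 5000 UMIs were thinned to 5000 each (72 to 427 shallower spots per section left out), *Vip* was found in 5.05, 11.9, 10.8 and 14.1% of spots and *Sst* in 60.4 to 70.7%. For comparison, the 10% of spots highest in oligodendrocyte markers held a *Vip* UMI in 4.66 to 7.14% of cases, an *Sst* UMI in 35.0 to 77.9% and a *Penk* UMI in 45.5 to 90.3%, at a lower median depth of 3625 to 7923 UMIs. These spots are not a background free of neuronal RNA. In section 2 their *Penk* level was 0.997 times and their *Ppp1r1b* level 1.06 times that of the whole section. Their *Vip* level was 9.14 to 13.6 CPM and their *Sst* level 212 to 431 CPM, so a share of spots with a UMI was not read as a share of expressing tissue.

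*Vip* had the largest share of its UMIs in its top 1% of spots of the 10 genes in every section. The 1% of spots richest in *Vip* (14 to 24 spots) held 49.7, 31.2, 49.2 and 31.5% of its UMIs in sections 1 to 4. Among genes with at least 1000 UMIs in a section, *Vip* ranked 1 of 5830 in section 2, 2 of 3793 in section 3 and 3 of 3322 in section 4, while in section 1 it had too few UMIs to be ranked. The median such gene had 5.28 to 6.44% in its top 1% of spots, and the deepest 1% of spots held 2.58 to 3.23% of all UMIs. Section 3 had a single spot with 78 *Vip* UMIs. The order did not hold at equal depth: with spots thinned to 5000 UMIs *Vip* had 53.5, 28.6, 42.9 and 32.7%, *Crh* 22.4, 48.1, 56.0 and 33.3% and *Adcyap1* 61.5, 31.3, 29.4 and 36.1%. After thinning, however, *Adcyap1* had a UMI in only 1.71 to 4.23% of spots and *Crh* in 2.26 to 9.08%. So few UMIs force a large share, so these genes could not be ordered against *Vip* at equal depth. With the top 5% of spots the means were 70.9% for *Vip*, 71.9% for *Crh* and 76.2% for *Adcyap1*, with the same limit for the rare genes.

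Somatostatin and neuropeptide Y mRNA were abundant and yet patchy. *Npy* had 19.1, 15.1, 22.5 and 24.5% of its UMIs in its top 1% of spots (ranks 11, 13, 5 and 5 among the same genes), and *Sst* 15.1, 14.1, 21.3 and 22.6% (ranks 15, 15, 7 and 6). The most *Npy* UMIs in any spot were 404 and the most *Sst* UMIs 268, both in section 4. *Cartpt*, whose peptides act in appetite and reward, had 16.5, 25.0, 23.6 and 23.8%, and 1 spot of section 2 alone held 187 UMIs, 5.85% of its UMIs there.

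*Crh* and *Adcyap1* were also unevenly spread, but from few UMIs. *Crh* had 19.7, 29.4, 44.6 and 29.6% in its top 1% of spots, against 2.90 to 10.9% if each UMI had sat in a spot of its own. For *Adcyap1* the values were 29.2, 19.5, 29.7 and 24.6%, against 7.95 to 15.6%. Thinning to 5000 UMIs raised the mean share of *Adcyap1* to 39.6%, above the 25.7 ± 4.72% (SD, n = 4) without thinning. The fewer UMIs a gene has, the larger the smallest possible share, so the rise was not read as a more uneven spread.

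The striatal peptides and *Cck* had smaller shares in their top 1% of spots than the other 6 genes on average over the sections, but *Pdyn* and *Tac1* still lay above the 95th percentile of all genes with 1000 or more UMIs (7.56 to 8.88%) in every section. *Pdyn* had 10.3, 10.7, 12.8 and 16.2%, *Tac1* 8.69, 8.90, 9.99 and 13.5%, *Penk* 6.26, 6.76, 9.70 and 13.2% and *Cck* 7.98, 6.06, 6.92 and 6.74%. Section 4 had the largest share for *Penk*, *Tac1* and *Pdyn*, and the same section had the lowest level of each. With spots thinned to 5000 UMIs section 4 still had the largest share for *Penk* (8.71%) and *Tac1* (9.94%). For *Pdyn* it then had 13.6%, against 14.0% in section 3. Among those genes *Pdyn* ranked 41, 45 and 24 in sections 1 to 3 (in section 4 it had too few UMIs to be ranked) and *Tac1* 92, 127, 87 and 14. *Penk* ranked 802, 1557, 107 and 15, and *Cck* 138, 2523, 1410 and 399, so both varied widely between sections.

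**Figure D2:**
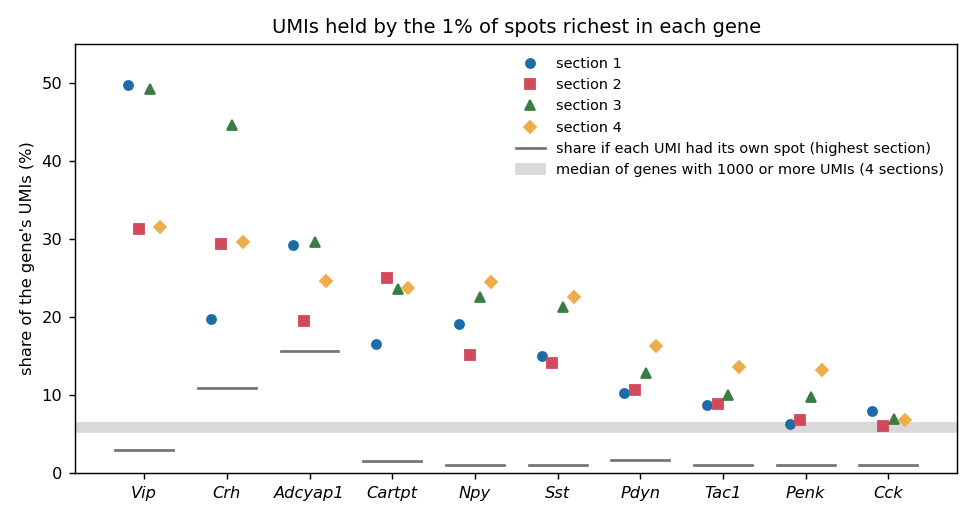
Share of each gene's UMIs held by the 1% of spots richest in that gene, in each section, with the range of the all-gene median in grey. *Vip* lies highest at 31.2 to 49.7% and *Cck* lowest at 6.06 to 7.98%. The grey line of each gene marks the share it would have if each of its UMIs sat in its own spot, in the section where that is highest.

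The first comparison asked where the striatal peptides lie. In the *Ppp1r1b*-high spots *Penk* stood at 2595, 2894, 3380.4 and 3344 CPM, against 1029, 1090.1, 1042 and 503 CPM in the remaining spots of the same sections. The groups did not overlap, and the difference was 4.03-fold (log2 2.01 ± 0.22, SE, edgeR adjusted p = 1.48e-07). *Tac1*, the substance P precursor, stood at 812, 992, 1206 and 844 CPM against 376, 394, 376 and 150.4 CPM. It too was higher in every section without overlap, by 3.51-fold (log2 1.81 ± 0.17, adjusted p = 2.34e-08). *Pdyn*, the dynorphin precursor, differed much less, at 93.6, 119, 119.8 and 65.9 CPM against 80.2, 102, 76.6 and 47.0 CPM. Its groups overlapped but it was higher within each section, by 1.42-fold (log2 0.50 ± 0.09, adjusted p = 6.37e-05). The share of all genes without overlap was not counted, in this comparison or in those below, so non-overlap only describes the values.

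The other 7 genes were all lower in the *Ppp1r1b*-high spots. *Vip* stood at 5.83, 10.0, 5.81 and 6.15 CPM against 15.9, 40.6, 56.6 and 60.3 CPM, 5.28-fold lower without overlap (log2 -2.40 ± 0.39, adjusted p = 2.88e-05). *Adcyap1* was at 0.343, 2.20, 1.09 and 1.81 CPM, from 1 to 9 UMIs per section, against 3.43 to 7.73 CPM (log2 -2.04 ± 0.28, adjusted p = 3.56e-06). *Cck* was at 170.3 to 220.3 CPM against 437 to 922 CPM, again without overlap (log2 -1.75 ± 0.12, adjusted p = 1.06e-10). *Crh*, the stress hormone precursor, was at 7.20, 2.20, 1.82 and 2.17 CPM against 26.8, 5.76, 9.08 and 15.0 CPM, lower within each section though the groups overlapped (log2 -1.86 ± 0.35, adjusted p = 0.000192). *Sst* (log2 -0.74 ± 0.10, adjusted p = 2.13e-06) and *Npy* (log2 -0.51 ± 0.14, adjusted p = 0.00427) were lower by less, and neither overlapped.

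*Cartpt* was the least even of these. It stood at 16.4, 71.2, 19.2 and 6.87 CPM in the *Ppp1r1b*-high spots against 59.2, 95.8, 95.5 and 47.8 CPM, so that section 2 overlapped the remaining spots (log2 -1.18 ± 0.29, adjusted p = 0.00211). Without section 3 its adjusted p was 0.0519. In total 3 of the 10 genes were higher and 7 lower, where 19.7% of the 12363 genes tested were higher and 20.3% lower (40.1% in all), and the median log2 fold change was -0.96 over the 10 genes and 0.00 over all genes. When libraries were scaled by total UMIs the median of all genes moved by -0.13 and the split of all calls became 1403 higher and 3823 lower, against 2441 and 2511, but the 10 peptide genes kept their directions and calls.

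**Figure D3:**
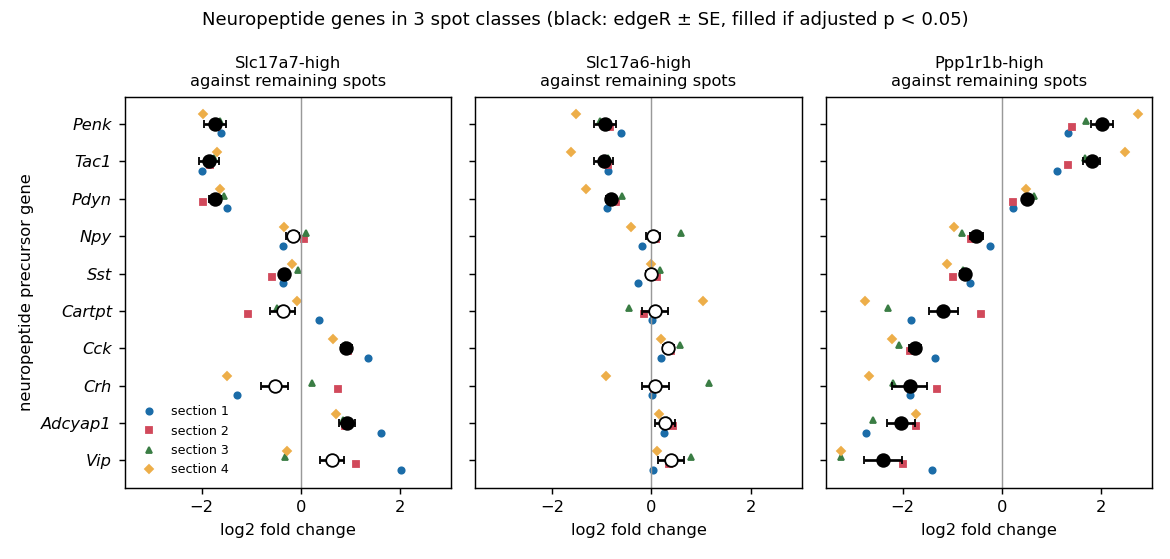
Log2 fold change of each gene in the spots high in *Slc17a7*, *Slc17a6* or *Ppp1r1b* against the remaining spots of the same sections. Black circles are the edgeR estimates with SE, filled where adjusted p was under 0.05, and coloured symbols are the 4 sections. *Penk*, *Tac1* and *Pdyn* are lower in the first and second panels and higher in the third.

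In the *Slc17a7*-high spots *Cck* and *Adcyap1* were higher and the striatal peptides lower. *Cck* stood at 1116, 1545, 1426 and 1435 CPM against 437, 801, 774 and 922 CPM, 1.88-fold higher without overlap (log2 0.91 ± 0.11, adjusted p = 2.32e-06). *Adcyap1* stood at 10.5, 14.2, 13.7 and 10.7 CPM against 3.43, 7.73, 7.64 and 6.62 CPM, 1.91-fold higher without overlap (log2 0.93 ± 0.16, adjusted p = 0.000129). *Penk* was at 335, 335, 337 and 127 CPM (log2 -1.73 ± 0.23, adjusted p = 6.21e-06), *Pdyn* at 14.9 to 28.4 CPM (log2 -1.73 ± 0.11, adjusted p = 1.61e-09) and *Tac1* at 46.1 to 112 CPM (log2 -1.85 ± 0.20, adjusted p = 5.83e-07). All 3 lay below the remaining spots without overlap.

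The interneuron peptides differed little or unevenly there, in spots where 3 of the 5 inhibitory neuron markers were lower (median log2 -0.97). *Sst* was lower by log2 0.33 ± 0.10 (391, 338, 487 and 424 against 502, 508, 505 and 478 CPM, adjusted p = 0.0114), a call that was lost without section 2 (adjusted p = 0.103). *Vip* was split between sections, with 64.8 and 87.3 CPM against 15.9 and 40.6 in sections 1 and 2, but 45.0 and 49.4 against 56.6 and 60.3 in sections 3 and 4, and was not called (adjusted p = 0.0548). Without section 3 or section 4 the *Vip* difference was called, at log2 0.91 and 0.89 (adjusted p = 0.0162 and 0.00988). With all sections *Vip* was called with total-UMI scaling (log2 0.66, adjusted p = 0.0420) and with spots of several classes kept (log2 0.67, adjusted p = 0.0131). It was also called without the filter on low counts (log2 0.61, adjusted p = 1.43e-11). In 9 of 14 alternatives it stayed uncalled. *Npy*, *Cartpt* and *Crh* were not called, with log2 fold changes of -0.17, -0.37 and -0.53. *Crh* was called lower without section 2 (log2 -0.95, adjusted p = 0.0248). In all 2 genes were higher and 4 lower, against 15.0% and 13.8% of all genes (28.8% in all), with a median log2 fold change of -0.35 over the 10 genes and 0.00 over all genes.

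The *Slc17a6*-high spots differed from the remaining spots in fewer genes. *Penk* stood at 675, 610.2, 505 and 174 CPM (log2 -0.95 ± 0.22, adjusted p = 0.0173), *Tac1* at 204, 216, 204 and 48.8 CPM (log2 -0.97 ± 0.19, adjusted p = 0.00581) and *Pdyn* at 42.6, 62.1, 50.7 and 18.6 CPM (log2 -0.81 ± 0.11, adjusted p = 0.000218). Each was lower than the remaining spots within every section, although the groups overlapped across sections. All 7 striatal markers were also lower there (median log2 -0.92, summed 217 to 646 CPM against 545 to 1073 in the remaining spots), as they were in the *Slc17a7*-high spots (median log2 -1.58), and their part in the peptide differences was not tested. No member was called higher by edgeR or DESeq2, and 1 (*Cck*, log2 0.34 ± 0.11, adjusted p = 0.0941) was higher at an unadjusted p under 0.05. The background was 1.97% of genes higher and 1.89% lower (3.86% in all). The *Penk* call was lost without section 2 (adjusted p = 0.0755) or section 3 (0.161) and with DESeq2 (0.122), and the *Tac1* call without section 3 (0.0856), while *Cck* was called higher without section 1 (log2 0.38, adjusted p = 0.00257).

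Set directly against each other, the *Ppp1r1b*-high and *Slc17a7*-high spots gave the largest differences of any comparison for *Penk*, *Tac1*, *Pdyn*, *Vip*, *Adcyap1* and *Cck*. For *Sst*, *Npy*, *Cartpt* and *Crh* the *Ppp1r1b*-high spots differed more from the remaining and from the *Slc17a6*-high spots. *Penk* was 13.4-fold higher in the *Ppp1r1b*-high spots (3053 ± 377 against 284 ± 104 CPM, SD, n = 4, log2 3.74 ± 0.24, adjusted p = 2.12e-11). *Tac1* was 12.7-fold higher (963 ± 179.9 against 90.5 ± 30.7 CPM, log2 3.66 ± 0.21, adjusted p = 2.22e-12) and *Pdyn* 4.71-fold higher (99.6 ± 25.6 against 23.8 ± 6.03 CPM, log2 2.23 ± 0.12, adjusted p = 1.49e-12). In the other direction, *Vip* was 8.14-fold, *Adcyap1* 7.84-fold and *Cck* 6.34-fold lower. None of these 6 genes overlapped between the classes, nor did *Sst*, but the share of all genes without overlap was not counted.

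*Sst* (log2 -0.41 ± 0.10, adjusted p = 0.00214) and *Crh* (log2 -1.33 ± 0.44, adjusted p = 0.0183) were also lower in the *Ppp1r1b*-high spots, but the *Crh* call was lost without section 2 (0.0840) or section 3 (0.0860). *Npy* (adjusted p = 0.0503) and *Cartpt* (0.0556) narrowly missed the threshold. *Npy* was called lower without section 1 (log2 -0.57, adjusted p = 0.000623) and *Cartpt* without section 2 (log2 -1.99, adjusted p = 2.38e-05). Only 7 of 14 alternatives left *Npy* uncalled, and 8 of 14 left *Cartpt* uncalled, so both calls depended on the processing. In this comparison 22.1% of all genes were higher and 21.6% lower (43.6% in all), and with total-UMI scaling the split of 2728 higher and 2666 lower became 1542 and 4039.

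The *Slc17a6*-high spots lay between the other classes for the striatal peptides. Against the *Slc17a7*-high spots *Pdyn* was 1.89-fold (adjusted p = 0.000354), *Tac1* 1.85-fold (0.0104) and *Penk* 1.73-fold higher (0.0318), *Sst* was 1.25-fold higher (0.0406) and *Cck* 1.49-fold lower (0.00165), where 4.53% of all genes were higher and 5.69% lower (10.2% in all). Leaving out single sections ended the *Sst* call (section 2, 3 or 4, adjusted p 0.287, 0.0962 and 0.0527), the *Penk* call (section 1, 2 or 3, adjusted p 0.0993, 0.104 and 0.111) and the *Tac1* call (section 2 or 3, adjusted p 0.0568 and 0.0826). With the top 20% of spots as classes the *Sst* difference was gone (log2 -0.0046). Against the *Ppp1r1b*-high spots all 10 genes differed, with *Penk*, *Tac1* and *Pdyn* 7.75-fold, 6.85-fold and 2.49-fold higher in the *Ppp1r1b*-high spots and 7 genes lower, where 18.5% of all genes were higher and 18.8% lower (37.3% in all). With total-UMI scaling that split became 1412 and 3570 genes, against 2287 and 2325. The *Npy* difference (log2 -0.55, adjusted p = 0.00412) was not called without section 3 (log2 -0.27, adjusted p = 0.124).

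The reverse view starts from the 1% of spots in which a peptide's UMIs most exceeded the number predicted from depth, here called its rich spots, and asks what else they held, as the ratio of CPM in those spots to CPM in all other spots of the section. These ratios are descriptions without a test, since the spots share 1 library and were picked on the peptide itself. The rich spots of *Crh* and *Adcyap1* were poorly defined, since in every section they included spots with only 1 UMI of the gene. Spots outside them held up to 2 to 6 *Crh* UMIs and 1 or 2 *Adcyap1* UMIs, so ratios in these rich spots carry less weight. In *Penk*-rich spots *Ppp1r1b* was 2.33, 2.47, 2.99 and 4.64 times the level elsewhere, and *Slc17a7* was 0.204, 0.190, 0.103 and 0.0858 times. *Tac1*-rich spots had *Ppp1r1b* at 1.76, 2.24, 2.77 and 4.25 times and *Slc17a7* at 0.299, 0.153, 0.106 and 0.231 times. *Pdyn*-rich spots shared the low *Slc17a7* (0.0800 to 0.638 times), but *Ppp1r1b* ran only from 0.886 to 1.93 times its level elsewhere, above 1 in 3 of 4 sections.

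*Cck*, *Adcyap1* and *Vip* had the opposite company. *Slc17a7* was 2.54, 1.83, 1.91 and 1.96 times its level elsewhere in *Cck*-rich spots, 2.31, 1.62, 1.85 and 1.52 times in *Adcyap1*-rich spots and 3.05, 1.71, 1.68 and 1.18 times in *Vip*-rich spots. *Ppp1r1b* was below its level elsewhere in all 4 sections for each, at 0.182 to 0.428 times. *Slc17a6* was above its level elsewhere in 4 of 4 sections only in *Vip*-rich spots, 1.18 to 2.23 times, from 31 UMIs in all.

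For *Sst*, *Npy* and *Cartpt* none of the 3 regional genes lay on the same side of its level elsewhere in all 4 sections, and for *Crh* only *Ppp1r1b* did, at 0.936, 0.497, 0.390 and 0.220 times. *Slc17a7* ran from 0.476 to 1.16 times in *Sst*-rich spots, 0.685 to 1.21 times in *Npy*-rich spots, 0.284 to 1.74 times in *Cartpt*-rich spots and 0.224 to 1.79 times in *Crh*-rich spots. *Ppp1r1b* in *Sst*-rich spots was 0.966, 1.34, 0.825 and, in section 4, only 0.181 times its level elsewhere. *Slc17a6* counts in these spots (17 to 26 UMIs over the 4 sections for each gene) were too few to order the sections.

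**Figure D4:**
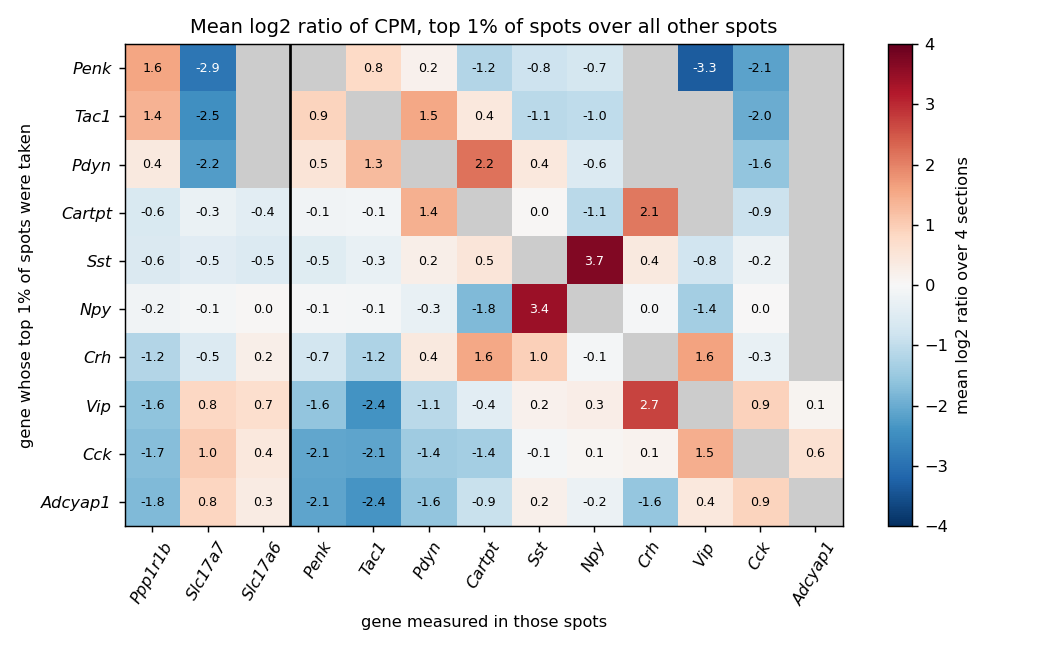
Mean log2 ratio of CPM over the 4 sections, for the spots richest in the gene of each row against all other spots, with the 3 regional genes left of the line and the other peptide genes right of it. Grey squares are the gene itself or genes without a UMI in the rich spots of at least 1 section. The 2 darkest red squares are *Npy* in *Sst*-rich spots (3.71) and *Sst* in *Npy*-rich spots (3.41).

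*Sst* and *Npy* shared their spots. *Npy* was 15.4, 12.3, 15.3 and 10.2 times its level elsewhere in *Sst*-rich spots, and *Sst* was 11.6, 10.8, 11.5 and 8.95 times in *Npy*-rich spots. Of the rich spots of each gene, 6 of 15, 13 of 24, 11 of 23 and 4 of 14 were the same spots. Ranked by the lowest ratio over the 4 sections, among other genes with at least 20 UMIs in those spots, *Npy* itself, *Cort* (3.92 to 19.7 times), the precursor of the somatostatin relative cortistatin, and *Resp18* (2.02 to 2.93 times) led in *Sst*-rich spots. *Sst*, *Nos1* (7.92 to 13.9 times), which encodes neuronal nitric oxide synthase, and *Crhbp* (4.29 to 16.2 times), which encodes a binding protein for corticotropin-releasing hormone, led in *Npy*-rich spots.

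*Crh* and *Vip* met in *Tac2*, the neurokinin B precursor. *Tac2* led in both, at no less than 9.29 times in *Crh*-rich spots and 4.10 to 23.3 times in *Vip*-rich spots, and *Crh* itself was 1.53 to 15.3 times its level elsewhere in *Vip*-rich spots. *Vip* in *Crh*-rich spots, by contrast, ran from 0.176 to 16.9 times, and the genes shared 0, 8, 5 and 1 of their rich spots. After *Tac2*, the genes leading in *Vip*-rich spots were *Ccn3* (2.02 to 3.29 times) and the transcription factor gene *Nr2f1* (1.78 to 2.64 times), and in *Crh*-rich spots *Sst* (1.60 to 2.41 times) and *Fxyd6* (1.42 to 1.78 times).

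The striatal peptides differed in their leading genes. *Penk*-rich spots were led by the adenosine receptor gene *Adora2a* (4.15 to 8.05 times), *Gpr6* (3.21 to 7.27 times) and the dopamine receptor gene *Drd2* (3.13 to 7.21 times). *Tac1*-rich spots were led by *Adra2c* (2.64 to 3.28 times), the dopamine receptor gene *Drd1* (2.52 to 4.48 times) and *Pcp4l1* (2.47 to 3.24 times). *Tac1* was 1.21 to 2.67 times its level elsewhere in *Penk*-rich spots. *Penk* and *Tac1* had 1 rich spot in common over the 4 sections. The number that random sets of so few spots would share was not computed, so this overlap was not read as a separation of the genes.

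*Pdyn*-rich spots were led by *Cartpt* (3.10, 5.12, 6.28 and 4.14 times), *Wfs1* (2.59 to 4.17 times) and *Crym* (2.02 to 2.94 times), and *Tac1* was 1.45 to 4.01 times. *Cartpt*-rich spots in turn held *Pdyn* at 1.54 to 4.83 times and *Crh* at 2.10 to 8.98 times, and were led by the neurotensin gene *Nts* (no less than 3.39 times), *Wfs1* (2.23 to 2.94 times) and *Camk2d* (1.77 to 2.41 times). *Wfs1* encodes an endoplasmic reticulum protein and stood among the leading genes of both.

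*Cck*-rich spots were led by the transcription factor genes *Nr4a2* (2.64 to 7.27 times) and *Neurod6* (2.11 to 4.37 times) and by *Ccn3* (2.60 to 4.38 times). *Adcyap1*-rich spots were led by *Fam81a* (1.61 to 2.38 times), *Slc17a7* and *Arhgdig* (1.52 to 1.77 times). In both, *Tac1* was below its level elsewhere in all 4 sections (0.208 to 0.269 and 0.135 to 0.296 times). *Gad2*, which encodes an enzyme of GABA synthesis, was 0.357 to 0.637 times in *Cck*-rich spots and 0.447 to 0.657 in *Adcyap1*-rich spots. It was 1.49 to 2.40 times in *Pdyn*-rich and 1.55 to 2.63 times in *Tac1*-rich spots. *Gad2* was above 1 in all 4 sections in *Npy*-rich (1.11 to 1.97), *Penk*-rich (1.09 to 1.92) and *Cartpt*-rich spots (1.01 to 2.36). In *Sst*-rich, *Crh*-rich and *Vip*-rich spots it was above 1 in 3, 2 and 1 of 4 sections. *Slc32a1*, another inhibitory neuron marker, was below 1 in all 4 sections in *Vip*-rich (0.467 to 0.761 times), *Cck*-rich and *Adcyap1*-rich spots. It was above 1 in all 4 in *Penk*-rich, *Pdyn*-rich, *Tac1*-rich and *Cartpt*-rich spots.

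The genes that receive and process these peptides were counted in the same fits. Of all genes, 15.0% were called higher and 13.8% lower in the *Slc17a7*-high spots, and 19.7% and 20.3% in the *Ppp1r1b*-high spots. In the *Slc17a6*-high spots the shares were 1.97% and 1.89%. Of 20 genes for their receptors and binding proteins, 13 passed the filter. In the *Slc17a7*-high spots edgeR called 5 higher, where DESeq2 called 4, and 3 lower. They were led by *Sstr2* (log2 0.98) and *Cckbr* (log2 0.91), receptors for somatostatin and cholecystokinin, and by *Npy2r* (log2 -1.31) and *Tacr1* (log2 -1.15), receptors for neuropeptide Y and substance P. In the *Ppp1r1b*-high spots 2 were higher, *Sstr5* (log2 1.28) and *Tacr1* (log2 1.05), and 7 lower, led by *Crhbp* (log2 -2.15) and *Cckbr* (log2 -1.96). In the *Slc17a6*-high spots *Crhr1* (log2 0.70) was called higher by edgeR but not by DESeq2, and edgeR called 0 lower, with 0 at an unadjusted p under 0.05 and 0 with DESeq2.

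All 13 processing and granin genes passed the filter. In the *Slc17a7*-high spots 7 were higher, led by the granin gene *Chgb* (log2 0.73) and the convertase gene *Pcsk1* (log2 0.72), and 1 was lower, *Scg2* (log2 -0.46). In the *Ppp1r1b*-high spots 2 were higher, *Scg5* (log2 0.26) and *Pcsk2*, and 5 lower, led by the vesicle priming genes *Cadps2* (log2 -1.81) and *Cadps* (log2 -0.62). In the *Slc17a6*-high spots 4 were higher, *Cadps2* (log2 0.64), *Chgb* (log2 0.31), *Cadps* and *Scg5*, and edgeR called 0 lower, with 0 at an unadjusted p under 0.05 and 0 with DESeq2. Of 28 other precursor genes only 9 passed the filter. In the *Ppp1r1b*-high spots edgeR called 7 of those 9 lower and DESeq2 called 5. The edgeR calls were led by *Tac2* (log2 -2.89) and the gastrin-releasing peptide gene *Grp* (log2 -2.27). Calls of a higher level numbered 0 with edgeR, 0 at an unadjusted p under 0.05 and 0 with DESeq2. In the *Slc17a7*-high spots *Grp* (log2 0.76) was higher and 3 were lower, *Nts* (log2 -2.34), *Pnoc* (log2 -1.06) and *Pomc*. In the *Slc17a6*-high spots *Gnrh1*, most of whose UMIs lay in 1 spot of section 3, was called higher by edgeR but not by DESeq2, and edgeR called 0 lower, with 0 at an unadjusted p under 0.05 and 0 with DESeq2. *Pcsk2*, *Pomc* and *Gnrh1* are named here after their values were seen. The shares of all genes given with the receptor genes are the background of these lists too. Whether any list differed from that background was not tested.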

How the data were processed

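RNA of 4 brain sections was measured on Visium slides. Per the labels, Space Ranger 1.3.1 and the mm10 build were used, and the authors deposited raw UMI counts for 32285 genes per spot. Spots with at least 500 UMIs were used. Levels are CPM, UMIs scaled to a total of 1000000 per section or class, and intervals are exact 95% intervals that cover counting error only.

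For the class comparisons, counts were summed per section and class (16 sums) and fitted with edgeR 4.0.16 in R 4.3.3 with TMM scaling, filterByExpr and a quasi-likelihood test that blocked on the section, and p-values were adjusted by Benjamini-Hochberg over 12366 genes. Calls are at an adjusted p under 0.05, SE is the log2 fold change over the square root of F, and background shares leave out the 3 class genes. Classes were paired by section, since 1 piece of tissue gave all of them, and deviations from class means correlated at 0.21 to 0.69 within sections and at -0.39 to 0.015 between sections over 9827 genes. Subtracting the class means by itself pulls the correlations between sections below 0, so that contrast is partly built in. On simulated counts for *Ppp1r1b*-high against remaining spots with 12366 genes, 185 of 200 genes changed by a log2 fold change of 1 were recovered, 0 in the wrong direction, with 9 false calls. The changed genes were split evenly between rises and falls, and no other gene differed between classes. In the real comparison 40.1% of genes were called, so these error counts do not carry over to it.

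Spots with a class gene's or a peptide's largest excess were ranked by observed minus expected UMIs over the square root of expected UMIs. Ratios of CPM in peptide-rich spots need at least 20 UMIs per section for the leading genes. Named genes are the members, the class genes, up to 2 rises and 2 falls per list and comparison with the same direction in 4 sections, and 3 leading genes per peptide. The members, lists and tests were chosen with earlier results of these data known. The oligodendrocyte-marker comparison, the promoter search and the single-spot values in the closing section were chosen after their values were seen. Alternatives were classes of 5% or 20%, ranking over all sections, spots of several classes kept, at least 5000 UMIs, all deposited spots, DESeq2 1.42.0, scaling by total UMIs, no block, no filter on low counts, and each section left out. No doublet caller and no cell types were applied to spots.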

Additional observations from a re-analysis of the deposited data

Results flagged for a closer look

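In 117 sets of 4 section values, 5 had a section far from the others by Dixon's test, where chance flags about 1 in 20 (5.85 of 117). *Ppp1r1b* in *Vip*-rich spots of section 4 had a log2 ratio of -2.16, against -1.49 to -1.36 in the other sections. *Pdyn* in the *Ppp1r1b*-high against the *Slc17a7*-high spots of section 1 had a log2 ratio of 1.72, against 2.12 to 2.20. *Tac1* in the *Slc17a6*-high against the remaining spots of section 4 had a log2 ratio of -1.62, against -0.88 to -0.87. *Cartpt* had 16.5% of its UMIs in the top 1% of spots of section 1, against 23.6 to 25.0%. *Adcyap1* in the *Slc17a6*-high against the *Slc17a7*-high spots of section 1 had a log2 ratio of -1.36, against -0.57 to -0.46, from 7 UMIs in the *Slc17a6*-high spots of that section. The number of flags was no larger than chance gives, and no cause was tested.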

How the results depend on the processing

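Over the alternatives, 745 of 839 log2 fold changes of the 10 genes kept direction and side of the threshold, 44 lost a call, 35 gained one and 15 changed sign. Of 336 counts 56 moved by over 1.5 times, and of 425 descriptive values 23 moved by over 1 SD. Nearly all changes of direction were in the thin *Slc17a6*-high class and the cause was not tested.

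Without the replicate block, which paired the classes by section, *Slc17a6*-high against remaining spots gave 0 genes higher and 0 lower, with 0 peptide genes lower (adjusted p no lower than 0.402 for *Penk*, *Pdyn* and *Tac1*). *Slc17a6*-high against *Slc17a7*-high then gave 80 genes higher and 134 lower, with 0 peptide genes higher and 0 lower, *Slc17a7*-high against remaining spots gave 752 and 794, and *Ppp1r1b*-high against remaining spots gave 1581 and 1655. The block also decided the calls of *Sst* in *Slc17a7*-high (0.0970), *Npy* and *Pdyn* in *Ppp1r1b*-high (0.120 and 0.134) against remaining spots, *Crh* in *Ppp1r1b*-high against *Slc17a7*-high (0.144) and *Npy* in *Ppp1r1b*-high against *Slc17a6*-high (0.0945).

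In *Slc17a6*-high against remaining spots, the genes called higher and lower were 4 and 17 with 20% classes (0 peptide genes lower), 529 and 512 with spots of several classes kept, 393 and 511 without a filter, 154 higher with at least 5000 UMIs and 155 lower with pooled ranking. There 1 peptide gene was higher with 5% classes, with pooled ranking and with spots of several classes kept, and 2 without a filter. Leaving out a section gave 27 to 366 genes higher and 23 to 262 lower, with 0 to 1 peptide genes higher and 1 to 3 lower.

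In *Slc17a6*-high against *Slc17a7*-high, 2 peptide genes were higher with 5% classes, 20% classes or DESeq2, and 7 without a filter. In the same comparison 2 were lower with 20% classes, pooled ranking, total-UMI scaling or no filter. It gave 1086 genes higher with 20% classes and 311 higher and 432 lower with spots of several classes kept. Leaving out a section gave 292 to 515 genes higher and 332 to 621 lower, with 1 to 3 peptide genes higher. Without a filter 7 peptide genes were lower in *Slc17a7*-high against remaining spots. With total-UMI scaling, *Ppp1r1b*-high gave 1403 genes higher and 3823 lower against remaining spots, 1542 and 4039 against *Slc17a7*-high and 1412 and 3570 against *Slc17a6*-high, with median shifts of -0.13, -0.17 and -0.15.

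Of the 15 changed signs, 1 was in a called value: *Sst* in *Slc17a6*-high against *Slc17a7*-high, at log2 -0.0046 with 20% classes. Against remaining spots, *Slc17a7*-high had *Npy* at 0.075 with 20% classes and *Cartpt* at 0.059 with 5% classes. *Slc17a6*-high had *Sst* at 0.016 with at least 5000 UMIs and 0.0086 with total-UMI scaling, *Npy* at -0.20 with 5% classes and -0.050 with spots of several classes kept, *Cartpt* at -0.0047 with 20% classes and *Crh* at -0.0053 without the block. With a section left out, *Slc17a6*-high against remaining spots ran from -0.070 to 0.085 for *Sst*, -0.18 to 0.18 for *Npy*, -0.22 to 0.24 for *Cartpt* and -0.25 to 0.32 for *Crh*, and *Slc17a6*-high against *Slc17a7*-high from -0.70 to 0.14 for *Vip*.

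The calls of *Sst* in *Slc17a7*-high and of *Npy* in *Ppp1r1b*-high spots against remaining spots were lost with 20% classes (adjusted p = 0.139 and 0.168), as were all 3 calls in *Slc17a6*-high spots. DESeq2 gave no adjusted p for *Adcyap1* in *Slc17a6*-high against remaining spots. Thinning moved the share of spots with a UMI by over 1 SD for 9 of the 10 genes, so those shares depend on depth. Few UMIs limit *Adcyap1*, *Crh* and every value that rests on *Slc17a6*.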

Other observations

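A pair of precursor genes outside the 10 had a large part of their UMIs in section 3 in single spots. *Gnrh1*, the gonadotropin-releasing hormone precursor, had 824 UMIs in section 3, of which 505 lay in 1 spot, where they made up 4.10% of the spot's 12311 UMIs, and 92 in the next. In sections 1, 2 and 4 it had 67, 31 and 12 UMIs. *Pomc*, the precursor of melanocortins and beta-endorphin, had 167 of its 382 UMIs in section 3 in a different spot, and no more than 3 in any other of the 207 spots of that section with a *Pomc* UMI. These spots were single, without a replicate.

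The pituitary hormone genes *Prl* and *Gh* were found almost only in section 4. *Prl* held 69.7 CPM there against 0.108 to 0.724 CPM in sections 1 to 3, and *Gh* 33.0 CPM against 0.0541 to 1.62 CPM. They were found in 27.5% and 19.3% of the 1431 spots of section 4, with at most 93 and 29 UMIs in a spot. The labels name brain as the tissue of all 4 sections. Section 4 also had the lowest levels of *Penk*, *Tac1*, *Pdyn*, *Cartpt* and *Sst*, and the highest of *Npy*, *Cck* and *Vip*. Whether pituitary RNA plays a part in any value of section 4 was not tested.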
